A study of Mus musculus with 6 samples.

Results

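The Krüppel-like factors (KLFs) are transcription factors that bind GC-rich and CACCC promoter elements through zinc fingers at the end of the protein. The 10 genes described here, Klf3, Klf4, Klf5, Klf6, Klf7, Klf8, Klf9, Klf10, Klf11 and Klf13, are family members other than Klf2, given by symbol and found by their Entrez numbers among 27179 genes in the count table. All 10 were in the table and all 10 passed the filter on low counts. Klf5 and Klf8 had counts in the anti-m6A libraries alone, so they passed through the group in which they were high. Klf4 and Klf11 would not have passed without their Input counts.

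RNA came from bone marrow stromal cells of P2 mice of the C57BL/6 strain that carry 1 copy of a DsRed reporter in the Cxcl12 gene (genotype Cxcl12-dsred/+). Cells positive for DsRed and negative for the blood, erythroid and endothelial markers CD45, Ter119 and CD31 were sorted, and their poly(A) RNA was divided into 3 groups of 2 libraries. Input is the 6% kept back from the pull-down. The anti-m6A group is RNA bound by 1.25 µg of an antibody to N6-methyladenosine (m6A), with an incubation with beads of 2 h. The IgG group is RNA carried by beads with IgG under the same conditions. All groups share the genotype, age and sort, so the comparisons are between fractions of RNA and not between animals or treatments. The number of animals behind a library is not given in the sources used here, and the replicates may be technical. The p-values then reflect how far these libraries vary, not how far animals do.

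m6A is laid down on adenosines within a short consensus by a nuclear methyltransferase, and in mRNA it is known to gather around the stop codon and in long last exons. KLF proteins fall into groups by the partners they recruit. Klf3 and Klf8 repress through the corepressor CtBP, Klf4, Klf5, Klf6 and Klf7 act largely as activators, and Klf9, Klf10, Klf11 and Klf13 recruit the Sin3A and histone deacetylase complex. Several KLF transcripts are short-lived and respond quickly to signals, and KLFs are known for roles in fat, bone and vessel wall differentiation.

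Because the antibody recognises methylated adenosine, the transcripts were searched for GGACT, the form of the consensus best known for methylation, on the sense strand alone. All 10 transcripts held GGACT at least once, as did 91.6% of the 10324 tested genes with a GENCODE M21 coding transcript. The match nearest to the stop codon is printed 5′ to 3′ for each gene, with GGACT in capitals and GRCm38 coordinates and strand. Klf5's lies across an exon junction, so that its coordinates span an intron. These are matches of letters and no measured sites: RNA was counted per gene, and the counts do not say where a transcript was methylated.
Klf3 (chr5:64822944-64822968, + strand): gaaccacagaGGACTgactattacc
Klf8 (chrX:153382934-153382958, + strand): taagatgagtGGACTaaagacaatc
Klf4 (chr4:55527792-55527816, - strand): gaacatgcccGGACTtacaaaatgc
Klf5 (chr14:99303456-99313153, + strand): gctcacctgaGGACTcatacgggcg
Klf6 (chr13:5867485-5867509, + strand): gggtgaccccGGACTcaccactggt
Klf7 (chr1:64035564-64035588, - strand): gcagagggctGGACTtcaggcgggg
Klf9 (chr19:23141765-23141789, + strand): ccgcctacatGGACTtcgtggctgc
Klf10 (chr15:38295591-38295615, - strand): tacacattggGGACTttgtttttgc
Klf11 (chr12:24660251-24660275, + strand): cgccaccgcaGGACTcacacgggag
Klf13 (chr7:63890556-63890580, - strand): acatcccacaGGACTgatggtggca

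The matches of Klf3, Klf5, Klf8, Klf9 and Klf11 lie in coding sequence, 416, 188, 558, 712 and 200 bases before the end of the stop codon. Those of Klf4, Klf6, Klf7, Klf10 and Klf13 lie in the 3′ UTR, 321, 214, 137, 302 and 940 bases after it, counted from the A of GGACT. The coding matches of Klf5 and Klf11 have the same base at 18 of 25 positions, the most of any pair, and every other pair shares 14 or fewer, the 5 motif bases included. A GGACT within 200 bases of the stop was present in 3 of the 10 transcripts, Klf5, Klf7 and Klf11, against 40.6% of the tested genes.

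The transcripts share a layout that the choice of genes did not use. In all 10 the longest exon is the last, as in 86.2% of tested genes, and 9 of the 10 have a last exon of at least 1500 bases, against 42.6%. The median 3′ UTR was 3166.5 bases for the 10 genes and 957 for all, from 982 in Klf4 to 6266 in Klf7. The wider consensus (AAC or GAC, preceded by A, G or T and followed by A, C or T) occurred at a median of 20.4 matches per kilobase in the 10 genes and 20.1 in all. Their density was thus close to that of other genes, while their 3′ UTRs were longer.

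**Figure D1:**
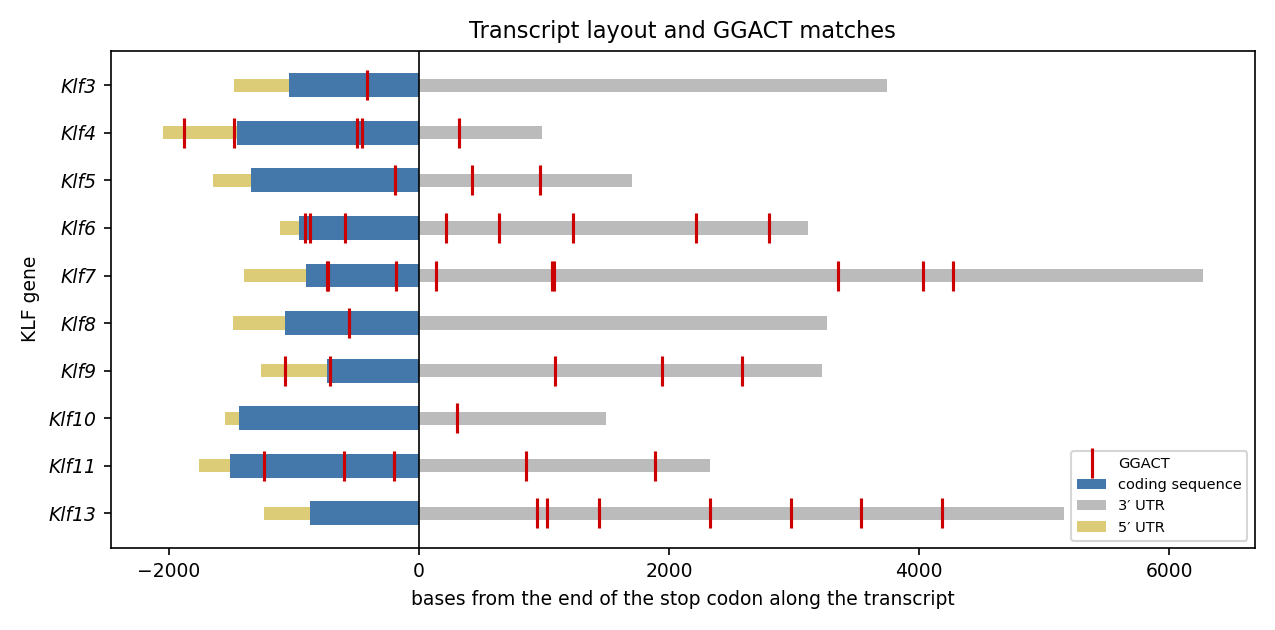
Layout of 1 transcript per KLF gene, in bases from the end of the stop codon (vertical line at 0), with coding sequence in blue, UTRs in grey and yellow and each GGACT match as a red bar. The 3′ UTR runs from 982 bases in Klf4 to 6266 in Klf7, and Klf3, Klf8 and Klf10 hold 1 match each while Klf7 holds 9.

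The libraries held 7125578 and 9493391 counts in Input, 2487148 and 1278735 in IgG and 6102070 and 5133237 in anti-m6A. The squared difference between replicates, averaged over genes with 20 counts or more in both together, was 121 (Input), 29 (IgG) and 10.1 (anti-m6A) times what random sampling gives. All 8 stromal markers had counts in both Input libraries. Of 10 endothelial markers, Cdh5, Tie1, Esam and Flt1 were at 0 in both Input libraries. Pecam1, the gene of the CD31 that the sort selected against, had 92 and 69 counts in Input, Kdr 88 and 56, Tek 168 and 110, and Emcn 0 and 511. The summed level of the 10 was 69 and 91 CPM (counts relative to the scaled library size) in Input, 150 and 159 in anti-m6A and 0 in IgG. Of 13 blood markers, 6 were detected in each Input library. Hba-a1, Hba-a2, Hbb-bs, S100a8 and S100a9 had counts in Input. Mpo, Elane, Cd79a, Vpreb1, Laptm5 and Ptprc, the gene of CD45, were at 0 in both Input libraries. The sums were 486 and 792 CPM in Input, 6180 and 5240 in IgG and 1100 and 1290 in anti-m6A. The sums of 15 hepatocyte markers were 1510 and 3330 CPM in Input, 24400 and 22100 in IgG and 1840 and 1880 in anti-m6A. The part of these other cells in the KLF values was not tested, and in bulk RNA fewer cells of a type and less RNA per cell cannot be told apart.

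The IgG libraries asked how much KLF RNA the beads held without the m6A antibody. None of the 10 KLF genes had a count in either IgG library, whereas the 10 together had 6810 and 7172 counts in Input and 5339 and 3827 in anti-m6A. A count of 0 allows up to 3 counts, or 1.16 and 1.94 CPM in the IgG libraries (counting error only, since amplified reads are not independent molecules). The gap was widest for the abundant members. At its Input share Klf13 would have given 620.2 and 370 counts in the IgG libraries, Klf6 443 and 264.5, and Klf3 429 and 256. For Klf11 the same share stands for 7.2 and 4.3 counts, so its absence was barely detectable at this depth. A count of 0 in both IgG libraries was common, at 73.4% of the 11281 genes tested. Among the 2183 genes with a mean of at least 100 CPM in anti-m6A, where Klf3, Klf6 and Klf13 lie, it was 45.7%.

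**Figure D2:**
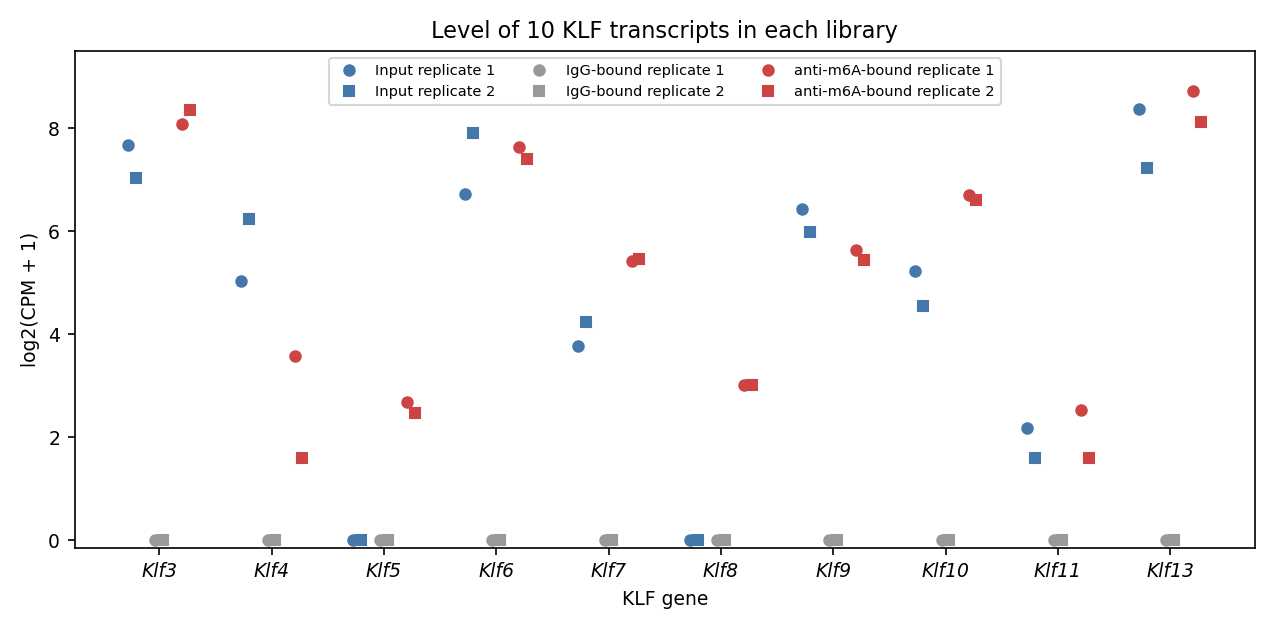
Level of each KLF transcript in each of the 6 libraries, as log2(CPM + 1), with circles for replicate 1 and squares for replicate 2. All IgG points (grey) lie at 0, Klf5 and Klf8 are also at 0 in Input (blue), and Klf4 is the only gene whose anti-m6A points (red) both lie more than 1 unit below both Input points.

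Per length of transcript, the KLF with the highest mean level in Input was Klf6, at 40.6 ± 22.6 CPM per kilobase (SD, n = 2), followed by Klf13 at 37.5 ± 20 and Klf3 at 31.8 ± 9.92. The libraries of these 3 neighbours overlapped, so their order is not resolved. Klf4 (17.4 ± 9.98) and Klf9 (16.4 ± 3.62) came next and overlapped each other. Klf10 at 9.69 ± 3.29 CPM per kilobase lay below Klf9, but its libraries (12.01 and 7.362) overlapped those of Klf4 (10.39 and 24.5). Klf7 at 1.98 ± 0.481 and Klf11 at 0.684 ± 0.262 CPM per kilobase followed without overlap, and Klf5 and Klf8 were at 0. In anti-m6A the order began with Klf3 at 56.7 ± 7.55, Klf13 at 54.4 ± 15.8 and Klf6 at 43.2 ± 5.13, which overlapped from one neighbour to the next. Klf10 came next at 32.7 ± 1.8 CPM per kilobase, apart from its neighbours on both sides. Klf9 at 10.2 ± 0.967 and Klf7 at 5.52 ± 0.15 were also apart from their neighbours. Klf4 (2.15 ± 2.1), Klf8 (1.49 ± 0.00102) and Klf5 (1.48 ± 0.18) overlapped from one to the next, and Klf11 had the lowest mean at 0.831 ± 0.476 CPM per kilobase. The Klf11 libraries (1.168 and 0.4936) overlapped those of Klf4 (3.629 and 0.6658). Klf4 thus stood above Klf10 in mean Input level, with overlapping libraries, and below it in anti-m6A.

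All 10 KLF transcripts were called higher in anti-m6A when compared with IgG (edgeR quasi-likelihood test, Benjamini-Hochberg adjustment over all genes), as were 73.1% of the genes tested, while 8.31% were lower and no member was. With 0 counts in IgG the fold is a lower bound, set against 3 counts per library. The bounds were at least 224-fold for Klf13, 191-fold for Klf3 and 118-fold for Klf6 (edgeR adjusted p = 0.00102, 0.000606 and 0.0011). They were at least 64-fold for Klf10, 29.4-fold for Klf9 and 27.3-fold for Klf7. For Klf8, Klf4, Klf5 and Klf11 they were 4.55-fold, 4.19-fold, 3.2-fold and 2.19-fold, the first number of counts in anti-m6A being 34, 53, 26 and 23 and the second 28, 8, 18 and 8. Klf5 and Klf8 passed the filter on low counts through anti-m6A alone, so their calls had to come out higher and support nothing. The calls of these 4 low members were the ones lost when 1 library was left out. Leaving out either anti-m6A library ended the calls of Klf5, Klf8 and Klf11 (edgeR adjusted p from 0.0662 to 0.148), leaving out either IgG library ended that of Klf4 (0.0797 and 0.0592), and a replicate block ended that of Klf5 (0.0535).

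IgG against Input shares these IgG zeros and the Input libraries, so its values stand beside the others and add no separate evidence. The 8 members with counts in Input were all called lower in IgG. In that comparison 6941 of all 11281 genes tested (61.5%) were called lower and 9.89% higher. That share includes genes at 0 in Input, which cannot be lower. Counts in Input were present for 9894 of the tested genes, so the share among genes like these 8 is larger. The lower bounds ran from 1.8-fold for Klf11 to 155-fold for Klf13 (edgeR adjusted p = 0.012 and 0.000991). Klf4 and Klf11 would not have passed the filter on low counts without Input, so their lower calls in IgG were favoured by the filter. The Klf11 call ended with IgG replicate 1 left out (adjusted p = 0.0506) or either anti-m6A library left out (0.0953 and 0.0774). Klf5 and Klf8 were at 0 in both groups and give no fold.

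Anti-m6A against Input asked which KLF transcripts took a larger or smaller share of the bound RNA than of the RNA offered to the antibody. Of the 10 members, 4 were higher and 0 lower by edgeR's test, against 28% and 20.5% of all genes tested. Of the calls over all genes, 57.8% were higher with TMM scaling, 47.6% with DESeq2's size factors and 45.5% with library totals. The 4 members were Klf5, Klf7, Klf8 and Klf10. Klf5 and Klf8 had to differ, since they passed the filter through anti-m6A alone. Of the 8 members with counts in Input, 2 were higher and 0 lower, against 18.7% and 23.3% of the 9894 tested genes with counts in Input. The median log2 change of the 8 was 0.41, and that of those genes was -0.14. Beside the 0 lower members, Klf4 alone had an unadjusted p under 0.05 in edgeR, and the DESeq2 Wald test called 2 members lower, Klf4 (adjusted p = 0.00141) and Klf9 (0.00411). The Wald test called 3635 of the 11281 genes tested lower.

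**Figure D3:**
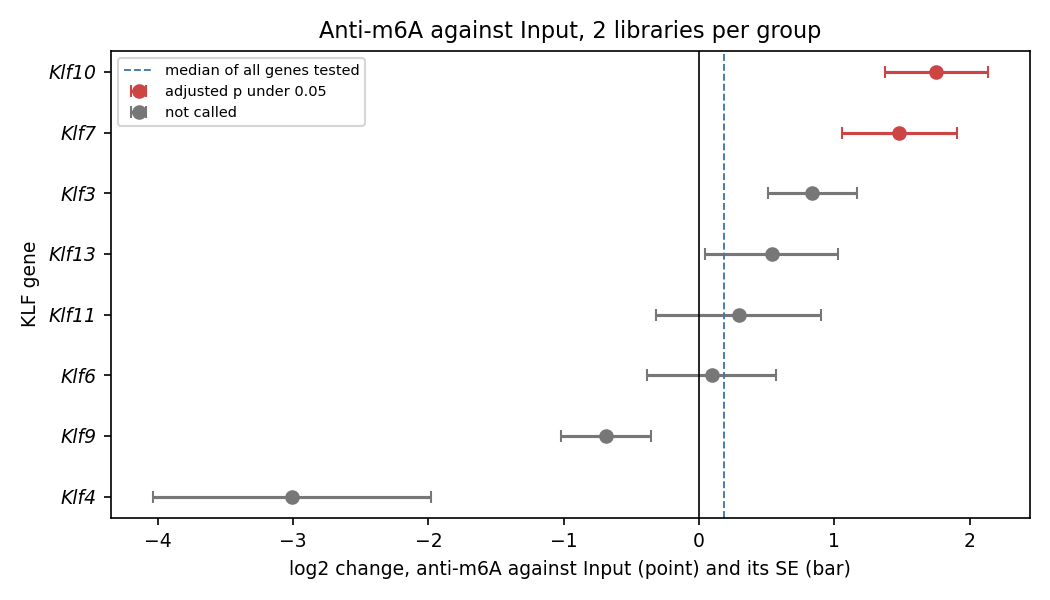
Log2 change of anti-m6A against Input (point) and its SE (bar) for the 8 KLF genes with counts in both groups, 2 libraries each; red marks an adjusted p under 0.05 and the dashed line is the median of all genes, 0.18. Klf10 and Klf7 lie highest, and Klf4 lies lowest with the widest bar.

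Among the CtBP-recruiting repressors, Klf3 is the abundant one. Klf3, known as a brake on fat cell differentiation, had 1711 and 1332 counts in Input and 1293 and 1285 in anti-m6A, or 202.5 and 129 CPM against 268 and 324. Both anti-m6A libraries were above both Input libraries. Its log2 change was 0.84 ± 0.33 (SE, n = 2 per group), which was not called (edgeR adjusted p = 0.105). It was called without Input replicate 1 (1.21, adjusted p = 0.00928) and with Input and anti-m6A fitted alone (0.95, 0.0416). Klf8, a repressor encoded on the X chromosome, had 0 counts in both Input libraries and 34 and 28 in anti-m6A, 7.05 and 7.06 CPM. It was at least 21.8-fold higher in anti-m6A than the Input floor of 3 counts per library, which is given as a description with no test.

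Among the activators, Klf4, a pluripotency factor that also acts in monocytes and vessel walls, had 266 and 765 counts in Input and 53 and 8 in anti-m6A. That is 31.5 and 74.2 CPM against 11 and 2.02, so both anti-m6A libraries lay below both Input libraries. Replicates of Klf4 differed 2.36-fold in Input and 5.45-fold in anti-m6A, the widest anti-m6A gap among the members. Klf4 would not have passed the filter on low counts without Input, so a lower call for Klf4 was favoured by the filter. Its log2 change of -3.01 ± 1.03 (SE, n = 2 per group), the largest in size of the 8 that can be given, was not called (edgeR adjusted p = 0.0753). Klf4 was called lower with DESeq2's size factors (-3.44, edgeR adjusted p = 0.0467), with library totals alone (-3.52, 0.0487) and without Input replicate 1 (-3.44, 0.00972) or Input replicate 2 (-2.23, 0.0454). It was not called with a replicate block (-3.27, edgeR adjusted p = 0.124), without anti-m6A replicate 1 (-4.67, 0.102) or without anti-m6A replicate 2 (-2.30, 0.278).

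Klf5, an activator known in smooth muscle and epithelia, had 0 counts in both Input libraries and 26 and 18 in anti-m6A, 5.39 and 4.54 CPM. It was at least 15.4-fold above the Input floor, again as a description. Counts in both anti-m6A libraries with 0 in all 4 Input and IgG libraries, the pattern of Klf5 and Klf8, were found in 10.6% of all genes tested. Klf6, a broadly expressed activator with early-response behaviour, had 878 and 2463 counts in Input and 955 and 664 in anti-m6A, or 104 and 239 CPM against 198 and 167. The anti-m6A values fell between the Input values, and the change was 0.09 ± 0.48 (SE; edgeR adjusted p = 0.893). Without Input replicate 2 it was 0.81 (adjusted p = 0.0346) and without Input replicate 1 it was -0.37 (0.201), so the direction for Klf6 rested on which Input library was kept.

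Klf7, known for its role in growing axons and in fat cells, had 106 and 183 counts in Input and 200 and 171 in anti-m6A. Its CPM were 12.5 and 17.8 in Input and 41.5 and 43.1 in anti-m6A, and the groups did not overlap. The log2 change was 1.48 ± 0.42 (SE, 2 libraries per group; edgeR adjusted p = 0.0489). This call of Klf7 ended with size factors from DESeq2 (1.05, edgeR adjusted p = 0.126), library totals (0.94, 0.154), no count filter (1.48, 0.0582), a replicate block (1.501, 0.134) and either anti-m6A library left out (1.53, 0.451 and 1.41, 0.527). In GENCODE M21 the lincRNA Gm26649 on the opposite strand shares 3196 of the 8050 exonic bases of Klf7. The library method does not mark strand, so over these shared bases reads of Klf7 and Gm26649 cannot be told apart.

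Among the Sin3A-recruiting members, Klf10 was the one called higher. Klf10, also known as a TGF-beta-inducible early gene with a role in bone, had 309 and 231 counts in Input and 498 and 379 in anti-m6A, or 36.6 and 22.4 CPM against 103 and 95.6. Both anti-m6A libraries lay above both Input libraries and within 1.08-fold of each other. Its log2 change was 1.75 ± 0.38 (SE, 2 libraries per group; edgeR adjusted p = 0.0239). The Klf10 call ended with size factors from DESeq2 (1.296, edgeR adjusted p = 0.0617), library totals (1.196, 0.0781), a replicate block (1.79, 0.0519) and either anti-m6A library left out (1.71, 0.247 and 1.75, 0.243). Klf11, its close relative, had 30 and 21 counts in Input and 23 and 8 in anti-m6A. These counts are low and overlap as CPM (3.55 and 2.04 against 4.77 and 2.02), with a log2 change of 0.29 and an SE of 0.61 (edgeR adjusted p = 0.729) that turned negative with DESeq2's size factors (-0.17) and with library totals (-0.26).

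Klf9, induced by glucocorticoids and thyroid hormone, had 718 and 639 counts in Input and 235 and 169 in anti-m6A, 85 and 62 CPM against 48.7 and 42.6. Both anti-m6A libraries were below both Input libraries, yet the change of -0.69 ± 0.33 (SE, n = 2 per group) was not called (edgeR adjusted p = 0.163). It was called without Input replicate 2 (-0.90, edgeR adjusted p = 0.0162). Klf13, known for its role in the heart and in T cells, was the member with the most counts, 2792 and 1538 in Input and 2022 and 1097 in anti-m6A. Its CPM of 330 and 149 in Input overlapped the 419 and 277 in anti-m6A. The change was 0.54 ± 0.49 (SE; edgeR adjusted p = 0.423), -0.025 with library totals, and was called without Input replicate 1 (1.24, adjusted p = 0.0219).

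Over the 10 members, both anti-m6A libraries lay above both Input libraries for 5 (Klf3, Klf5, Klf7, Klf8 and Klf10), as for 44.3% of all genes tested. They lay below for 2 (Klf4 and Klf9), as for 34.4% of genes. Klf4, Klf6 and Klf13 differed at least 2-fold between the Input libraries, as did 30.5% of the 9108 genes with counts in both. Klf4 and Klf6 were higher in Input replicate 2 and Klf13 in Input replicate 1.

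Klf4 and Klf10 have transcripts of nearly the same length, 3029 and 3044 bases, and are set side by side here after their values were seen, with no test of the difference. Counts of Klf10 per count of Klf4 in the same library, a ratio that scaling does not touch, were 1.16 and 0.302 in Input and 9.4 and 47.4 in anti-m6A. Klf10 had 1 GGACT and Klf4 had 5, and the wider consensus had 18.7 and 22.4 matches per kilobase.

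**Figure D4:**
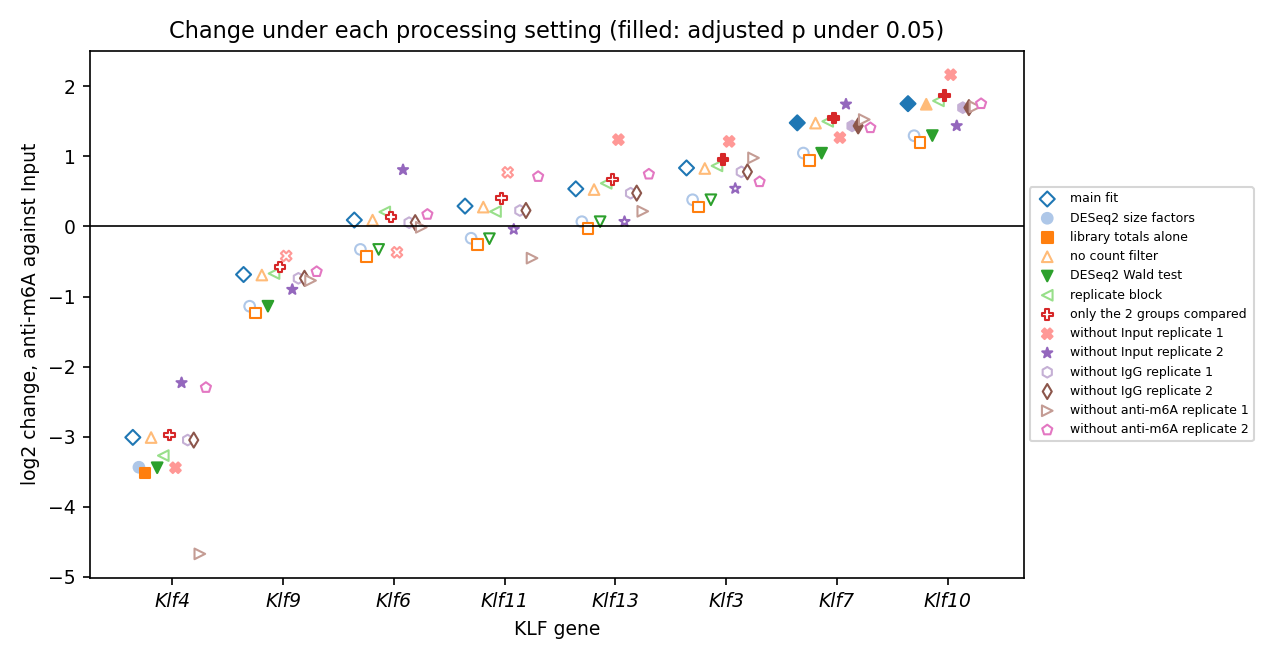
Log2 change of anti-m6A against Input for each of the 8 KLF genes under the main analysis and 12 other settings, filled where the adjusted p was under 0.05. Klf4 and Klf9 stayed below 0 and Klf3, Klf7 and Klf10 above 0 under each setting shown, while Klf6, Klf11 and Klf13 crossed it.

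The genes whose levels ran closest to a member were found by the distance between log2(CPM + 1) profiles over the 6 libraries, among 11280 other tested genes. Nearest to Klf13 were Eif5b, Luc7l3 and Chchd7 (distances 0.44, 0.473 and 0.633). Nearest to Klf3 were Cbr1, Tln2 and Slc25a39 (0.338, 0.347 and 0.436), and nearest to Klf6 were Sult1a1, Kmt2e and Rtp4 (0.166, 0.302 and 0.357). Each of these 9 genes was at 0 in both IgG libraries, which the choice by distance favours, since the distance includes the IgG libraries. Klf3 and Klf13 were each other's nearest member at a distance of 1.00, and the member nearest to Klf6 was Klf3 at 1.67. The search covered 11280 genes but 9 members, so closer genes outside the family say nothing about likeness among KLFs.

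Klf2, the family member left out here, had 25 and 5 counts in Input, 0 in IgG and 165 and 149 in anti-m6A. Klf2 would not have passed the filter on low counts without anti-m6A, the group in which it was high. Its higher call was thus favoured by the filter and adds no support. Its log2 change against Input of 4.37 ± 1.03 (SE, 2 libraries per group; edgeR adjusted p = 0.0293) was larger than that of any member with counts in both groups, a difference that was not tested. It was 6.15 without Input replicate 1 and 3.58 without Input replicate 2. Klf2 was no longer called by edgeR when anti-m6A replicate 1 (adjusted p = 0.144) or replicate 2 (0.161) was left out. Of 16 other KLF and SP genes, the SP factors being close relatives that bind the same elements, 9 were tested. Against Input 2 were higher, Klf2 and Sp6, and 2 lower, Sp3 and Sp7, with a median log2 change of -0.84. In this and the lists that follow, the counts stand beside 28% of all genes higher, 20.5% lower and a median of 0.18. Sp6 had 0 counts in Input and IgG and 20 and 15 in anti-m6A. It passed the filter through anti-m6A alone, so its call had to come out higher. Sp7, the osteoblast factor osterix, went from 25.7 to 7.04 mean CPM, a change of -1.86 ± 0.48 (SE; edgeR adjusted p = 0.0363), and Sp3 changed by -1.44 ± 0.33 (0.0193). Sp3 was also unlike the 10 members in IgG, where it had 134 and 66 counts.

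Of 9 genes for corepressors of KLFs, 2 were lower in anti-m6A and 0 higher when set against Input, with a median of -0.35. Sin3a, the scaffold that Klf9, Klf10, Klf11 and Klf13 bind, changed by -2.35 ± 0.55 and the deacetylase Hdac2 by -2.32 ± 0.55 (SE, n = 2 per group; edgeR adjusted p = 0.0287 and 0.0302). For Ctbp1, the partner of Klf3 and Klf8, the IgG libraries had 1323 and 632 counts against 296 and 296 in anti-m6A (log2 change of anti-m6A against IgG -2.76 ± 0.26, SE; edgeR adjusted p = 0.000822). Of 4 coactivators, 1 was lower than Input, Ep300, with 90 and 115 counts in Input and 1 and 0 in anti-m6A. With 0 counts in IgG, Ep300 passed the filter through Input alone, so its call had to come out lower. Of 7 ubiquitin ligases that act on KLFs or on TGF-beta signalling, 1 was higher and 4 lower. Wwp1, a ligase for Klf5, was higher than Input by 1.92 ± 0.36 (SE; edgeR adjusted p = 0.0112) but higher still in IgG, at 191 mean CPM against 30.6 in anti-m6A. The lower ones were Btrc, Siah1a, Smurf1 and Smurf2, with log2 changes of -2.65, -3.90, -3.13 and -1.56. Siah1a, with 3 and 10 counts in anti-m6A and 0 in IgG, would not have passed the filter without Input.

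Genes of the signalling pathways upstream of KLFs gave 6 higher and 2 lower of 13 tested, with a median of 1.31, beside 28%, 20.5% and 0.18 over all genes. Mapk7, Smad3 and Mef2d, 3 of the 6, had 0 or 1 count over the Input pair. Mapk7, the kinase ERK5 that drives Klf2 and Klf4 through MEF2 factors, was at 0 in Input and at least 26.6-fold above that floor. It was at 0 in IgG too and passed the filter through anti-m6A alone, so its call had to come out higher. Smad3 and Mef2d had 1 count each over both Input libraries, and 19 and 20, and 19 and 14 counts in anti-m6A. With 0 counts in IgG, they also passed the filter through anti-m6A alone. Mef2c, another of the 6, had 6 and 26 counts in Input, 0 in IgG and 76 and 70 in anti-m6A. It would not have passed the filter without anti-m6A, so its higher call was favoured by the filter. Map2k5, which activates ERK5, was higher than Input by 4.28 ± 0.99 (SE; edgeR adjusted p = 0.0199) but stood at 722 mean CPM in IgG against 27.9 in anti-m6A. Known KLF targets gave 4 higher and 3 lower of 13, with a median of -0.48. Among the called targets, Fkbp5, Cebpb, Ccnd1 and Tgfbr3 had the largest changes, -4.17 ± 0.43, 2.94 ± 0.41, 2.48 ± 0.58 and -1.64 ± 0.34 (SE, n = 2 per group). Immediate early genes, a class to which Klf4, Klf6 and Klf10 are often added, gave 2 higher and 5 lower of 14 tested, with a median of -0.57, again beside 28%, 20.5% and 0.18. Fosl2 changed by -5.67 ± 0.66, Jun by -1.45 ± 0.36 and Btg2 by 2.16 ± 0.47 (SE, n = 2 per group), and Atf3 was at 0 in Input and at least 11.9-fold above its floor. Atf3 is among the 2 higher, and its bound is given as a description. These lists are described by their counts alone and were not tested as groups. Of the 34 genes called on them, Klf2 included, 15 kept their call with a replicate block. Most of the calls ended when either anti-m6A library was left out. Leaving out an Input library drops the spread between the Input libraries from the fit, so a call kept there does not show that it is firm.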

How the data were processed

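The authors deposited raw counts per Entrez gene for 6 libraries made from poly(A) RNA by the Smart-seq2 method, per the labels' protocols. Picard, featureCounts, edgeR 3.38.1 and build mm10 appear in the submitters' processing notes, with no role or order. Which aligner and annotation were used is not given in the sources used here. Of 27179 gene numbers 25275 matched a RefSeq symbol of GRCm38.p6, and the other 1904 stayed in the fits.

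Groups and replicate numbers came from the sample titles. In R 4.3.3 with edgeR 4.0.16, genes were kept by filterByExpr (minimum count 10, minimum total 15), which left 11281, scaled by TMM, and fitted by glmQLFit with a mean per group, leaving 3 residual degrees of freedom. P-values were 2-sided and adjusted by Benjamini-Hochberg over all genes tested, with a threshold of 0.05. The SE is the log2 change divided by the square root of F. CPM use the TMM-adjusted library size. A group at 0 is compared through a floor of 3 counts per library, a mean of 0.323 (Input), 1.55 (IgG) and 0.689 CPM (anti-m6A), and fitted values of such genes enter only medians.

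Transcript lengths, UTRs and motif matches come from 1 GENCODE M21 (GRCm38) coding transcript per gene, the longest among those marked principal. It was found for 91.5% of tested genes. The files give no transcript per read, so a level per kilobase assumes that transcript. Exact stretches of 50 bases shared with transcripts of other genes numbered 3108 for Klf7 with Gm26649, 356 for Klf3 with Gm20033 and 11 or fewer for any other pair. Matches on either strand were counted.

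Other settings were DESeq2 1.42.0 (its size factors, and its Wald test), library totals, other count filters, a replicate block, the compared groups alone and each library left out. Leaving out 1 library removes the spread within its group from the fit. A call gained or kept without an Input library is thus no sign of firmness. The 10 genes and all lists were chosen with earlier results of these data known. Named genes are the 10 members, for each list up to 4 called genes with the largest changes in a comparison and genes at 0 in a group, and for the 3 members with the highest mean CPM the 3 nearest genes. Smurf2, the IgG counts of Sp3, the genes of the closing observations and the pairing of Klf4 with Klf10 were chosen after values were seen.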

Additional observations from a re-analysis of the deposited data

How the results depend on the processing

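Against IgG, 10 members were called higher in the main analysis, and from 7 to 10 with 1 library left out. Against Input, 4 members were higher and 0 lower. The higher count was 2 with DESeq2's size factors, 2 with library totals and 1 with a replicate block, and from 0 (without either anti-m6A library) to 6 with 1 library left out. With DESeq2's size factors and with library totals the 2 higher members were Klf5 and Klf8. With a replicate block the 1 higher member was Klf8. The calls of Klf5 and Klf8 had to come out higher, and Klf7 and Klf10 were called in none of these settings. The lower count was 1 with DESeq2's size factors, 1 with library totals and 2 with the DESeq2 Wald test, beside 2982, 3127 and 3635 genes. It rose without either Input library, again as over all genes. IgG against Input gave 8 lower, and 7 to 8 with 1 library left out.

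Relative to TMM, DESeq2's size factors shifted the median change over all genes (anti-m6A against Input) by -0.40 and library totals by -0.51. The change of Klf6 reversed to -0.33 with DESeq2's size factors, -0.43 with library totals, -0.33 with the DESeq2 Wald test, and as low as -0.37 without Input replicate 1 and -0.01 without anti-m6A replicate 1, against 0.81 at the highest. That of Klf11 reversed to -0.17, -0.26 and -0.17 in the same 3 settings, to -0.04 without Input replicate 2 and -0.45 without anti-m6A replicate 1, with a highest value of 0.77. That of Klf13 reversed to -0.025 with library totals. The cause was not tested.

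Over all genes, 3156 were higher and 2308 lower than Input, 2711 and 2982 with DESeq2's size factors, and 2609 and 3127 with library totals. The higher count ran from 370 to 5152 and the lower from 72 to 3961 with 1 library left out, the lowest without anti-m6A replicate 1. The DESeq2 Wald test gave 3635 lower and the replicate block 1242. A minimum of 10 counts in every library left 1757 genes and no member, since all members were at 0 in IgG, and gave 593 higher and 586 lower than IgG, 410 and 518 for anti-m6A against Input, and 480 and 571 for IgG against Input. The main counts were 8249 and 938 against IgG, and 1116 and 6941 for IgG against Input. Between groups the deviations of same-numbered libraries correlated at 0.046 (Input and IgG), 0.102 (Input and anti-m6A) and 0.127 (IgG and anti-m6A) over 11281 genes, and the labels do not say whether same-numbered libraries share an RNA pool.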

Other observations

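The Input libraries split on several relatives of these genes, picked out after their values were seen. Klf1, the erythroid KLF, had 0 and 452 counts in Input and 60 and 48 in anti-m6A. Klf16 had 0 and 139 counts in Input against 34 and 13 in anti-m6A, and Sp1 had 51 and 638 against 71 and 61. Input replicate 2 was the higher for these 3. For Klf2 (25 and 5 counts) and Sp2 (12 and 1) it was Input replicate 1. Klf1, Klf16 and Sp1 were at 0 in both IgG libraries. Klf12 had 2 and 0 counts in Input and Klf17 0 and 4, with 0 in the other libraries, and Klf14, Sp5, Sp8 and Sp9 had 0 in all 6. Klf15, known in fat and muscle metabolism, had 30 and 29 counts in Input and 6 and 9 in anti-m6A.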
